A study of Mus musculus with 8 samples.

Results

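The genes described here encode the factors that start and extend protein synthesis in the cytoplasm: initiation factors of the eIF1, eIF3, eIF4, eIF5 and eIF6 families and elongation factors of the eEF1 and eEF2 families, with the enzymes and binding proteins that carry their names. They were chosen by gene symbol, without pseudogenes, without Eef1e1 and without any gene of the eIF2 family. The rule found 52 genes among the 56077 genes and loci of the count table, and 48 of them had enough counts to be tested among 14261 tested genes. Ribosomal RNA was removed, and the remaining RNA was sequenced, for livers of 4 mice heterozygous for eIF2α (Het, libraries H11, H12, H15 and H75) and of 4 wild-type mice (WT, libraries W32, W33, W76 and W90). All were lean C57BL/6 mice, 6 months old, kept on a cycle of 12 h light and 12 h dark with free access to food and killed in the fed state at 6:30 in the morning. The Het genotype is labelled flox/+, no recombinase is mentioned, and the growth protocol gives the words wild-type for both groups. No label says whether the animals came from separate litters, so the p-values measure the spread between these libraries only.

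In eukaryotic initiation, eIF1, eIF1A, eIF3 and eIF5 hold the small ribosomal subunit ready to scan, while the eIF4F complex (the cap-binding protein eIF4E, the helicase eIF4A and the scaffold eIF4G) brings it to the capped end of the mRNA. The 4E-binding proteins occupy eIF4E and keep eIF4G off it until the kinase mTOR phosphorylates them, and in liver this switch follows feeding. eEF1A then delivers each aminoacyl-tRNA, the eEF1B subunits recharge eEF1A with GTP, eEF2 moves the ribosome along, and eIF5A helps it over difficult sequences.

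Across the set the differences between Het and WT livers were small, with the exception of a 4E-binding protein. Eif4ebp3 RNA was higher in Het livers by a fitted fold of 3.03 and was the single tested member whose Het and WT values did not overlap. That is 2.08% of the 48, about the share of all tested genes that were higher in Het without overlap (2.06%). Of the 48 tested genes, 41 had a fitted log2 fold change above 0 (51.1% of all tested genes did), and the median over the 48 was 0.13 against 0.0051 over all tested genes. Without Eif4ebp3 that median was 0.11. The share above 0 moved with the scaling of the libraries: with library totals alone, 29 of the members were above 0 and 19 below, or 60.4%, beside 34.4% of all tested genes.

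Levels are CPM (counts scaled to a common library total) on library sizes scaled by TMM, a method that aligns the bulk of genes between libraries, and levels compared between genes are CPM per kilobase of gene length. With edgeR's quasi-likelihood F-test and Benjamini-Hochberg adjustment over all tested genes, 0 members passed an adjusted p of 0.05, where 0% of all tested genes passed. At an unadjusted p under 0.05, 4 members were higher in Het (4.9% of all genes were), namely Eif4ebp3, Eef1akmt4, Eif4ebp1 and Eef1g, and 0 were lower (4.44% of all genes were). Groups did not overlap for 1 member higher in Het (2.06% of all genes) and for 0 lower (2.32% of all genes). DESeq2 called 1 member higher, Eif4ebp3 (0.638% of all genes were called higher), and 0 lower (0.428% of all genes), and limma-voom called 0 (0% of all genes). In bulk liver, fewer cells of a type and less RNA per cell cannot be told apart. Exons of 14 of the 52 genes overlap those of another gene on the same strand and of 13 on the other strand, where the counts depend on how reads were assigned.

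**Figure D1:**
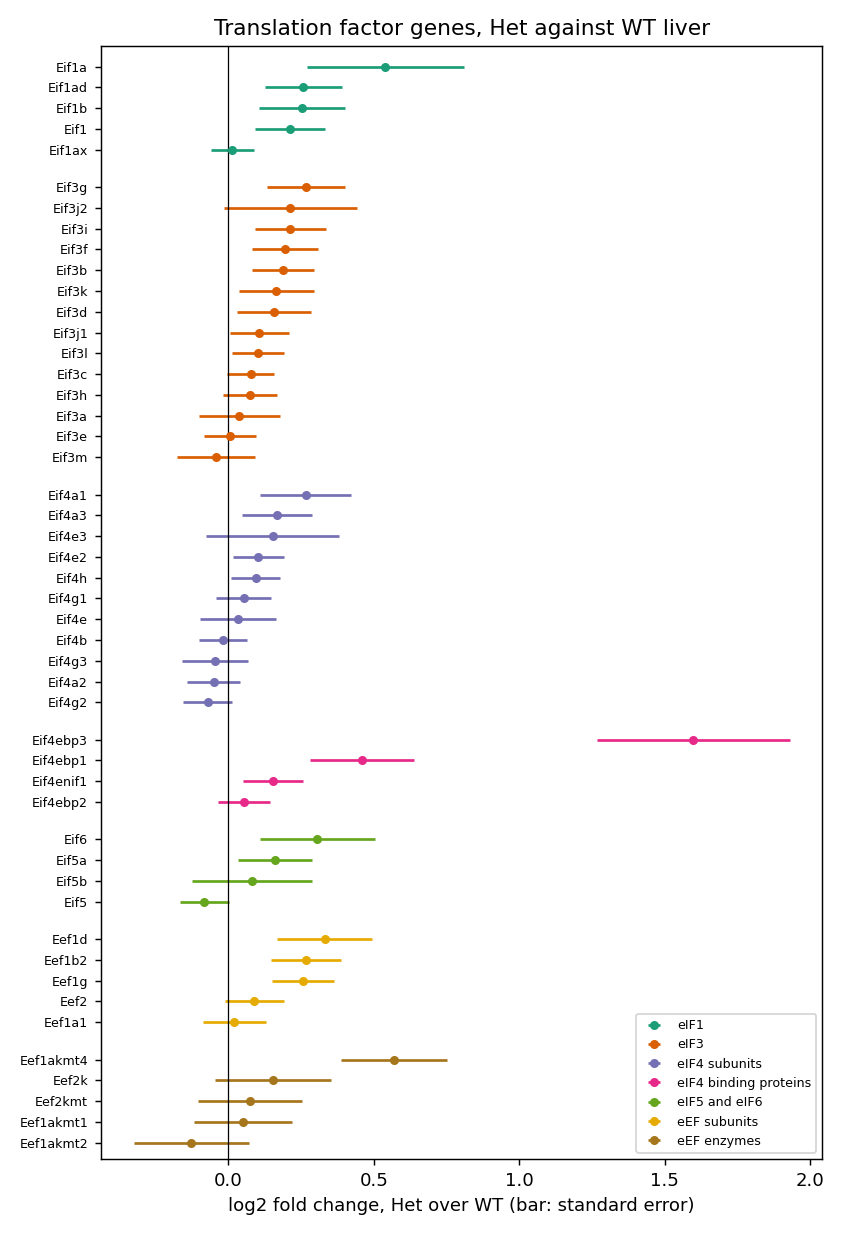
Fitted log2 fold change of Het over WT (horizontal axis) for each of the 48 tested genes, ordered within its role, with the standard error from edgeR as the bar. Eif4ebp3 lies at 1.60, and the other genes lie between -0.13 and 0.57.

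Library totals were 22178028 to 28564400 counts in Het and 25626387 to 27799116 in WT. Eif2s1, which encodes eIF2α and checks the labels, had 20.5, 22.3, 20.8 and 25.1 CPM in the 4 Het libraries, against 28.4, 28.8, 32.8 and 30.1 CPM in the 4 WT libraries (log2 fold change -0.44 ± 0.095, standard error, edgeR adjusted p = 0.315, DESeq2 adjusted p = 0.0156). Every Het library lay below every WT library. Summed over 10 genes of lipid synthesis, H15 held 28258 CPM, within the WT range of 25424 to 35769 CPM, while H11, H12 and H75 held 7681, 5487 and 5306 CPM. The lipid synthesis list and the acute-phase list below were taken because H15 stood apart in them in earlier results of these data. Their sums therefore restate that H15 stood apart and do not test it. Values without H15 are given below, as a description, where they differ. H12 and H75 had the lowest TMM factors, 0.909 and 0.900, against 1.02 and 1.06 in H11 and H15 and 0.9997 to 1.06 in WT.

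The upward deviation of the translation factor genes lay in H12 and H75. Relative to the WT mean of each gene, the median deviation of the 48 genes on the log2 CPM scale was 0.31 in H12 and 0.22 in H75 but -0.013 in H11 and 0.00047 in H15, against -0.057, -0.043, -0.0077 and 0.12 in the WT libraries W32, W33, W76 and W90. H12 lay above the highest WT library for 32 members and H75 for 29, but H11 did so for 5 and H15 for 3. Over all tested genes those shares were 28.6% for H12 and 29.1% for H75, and 20.8% for H11 and 20.5% for H15. H12 and H75 were the highest pair of Het libraries for 34 members, and for 27.3% of all tested genes. With library totals alone the medians of the members were -0.032, 0.13, 0.043 and 0.020 in H11, H12, H15 and H75, against -0.052 to 0.12 in WT. Over all tested genes the medians under that scaling were -0.013, -0.18, 0.051 and -0.19 in H11, H12, H15 and H75. In H12 and H75 the median of the members thus lay above that of all genes, as it did with TMM. A change of scaling moves all genes of a library by about the same amount, so that order could not change and is no separate support.

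Summed over 10 acute-phase genes, the 4 Het libraries H11, H12, H15 and H75 held 7989, 13065, 5640 and 11437 CPM, against 5146 to 6107 CPM in WT, so that H11 too lay above every WT library. The 5 neutrophil markers summed to 11.7, 43.2, 5.06 and 24.7 CPM in those Het libraries and 2.61 to 6.30 CPM in WT. Most of that sum was Lcn2, which is also an acute-phase gene in the list above and had 7.87, 36.4, 3.82 and 18.7 CPM in the Het libraries against 1.57 to 4.02 CPM in WT. At lower levels, S100a8, S100a9 and Csf3r too were higher in H11, H12 and H75 than in every WT library, but not in H15. S100a9 had 1.24, 2.47, 0.0850 and 1.85 CPM in H11, H12, H15 and H75, against 0.189 to 0.501 CPM in WT. The 4 biliary markers summed to 11.2, 49.2, 17.7 and 21.7 CPM in H11, H12, H15 and H75, against 9.83 to 16.0 CPM in WT. Sox9 made up most of it in H12 and H75, with 8.84, 44.8, 8.24 and 20.2 CPM in the Het libraries and 7.90 to 9.57 CPM in WT, while Krt19, Krt7 and Epcam were highest in H15, at 3.10, 1.91 and 4.42 CPM. The stellate markers summed to 227, 137, 211 and 82.8 CPM in H11, H12, H15 and H75, against 151 to 198 CPM in WT, with H12 and H75 below every WT library and the other Het libraries above. Sums for hepatocytes (83039 to 92384 CPM in Het, 70976 to 98860 CPM in WT), Kupffer cells (75.2 to 170 CPM in Het, 69.9 to 170 CPM in WT) and erythroid cells (290 to 440 CPM in Het, 258 to 393 CPM in WT) overlapped, as did those for sinusoidal endothelium (112 to 168 CPM in Het, 97.2 to 134 CPM in WT) and lymphocytes (1.12 to 2.77 CPM in Het, 0.643 to 2.04 CPM in WT). Of these lists no marker was at 0 in all libraries. Most of the hepatocyte sum was Alb. Of the hepatocyte markers Hnf4a alone did not overlap, with 538 to 715 CPM in Het and 495 to 537 CPM in WT. Its log2 fold change was 0.30 ± 0.11 (standard error, edgeR adjusted p = 0.458). The 3 adipocyte markers summed to at most 0.0850 CPM in Het and 0.107 CPM in WT, with 1 of them at 0 throughout. The part of these cells or of the acute phase in the members' shift was not tested.

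**Figure D2:**
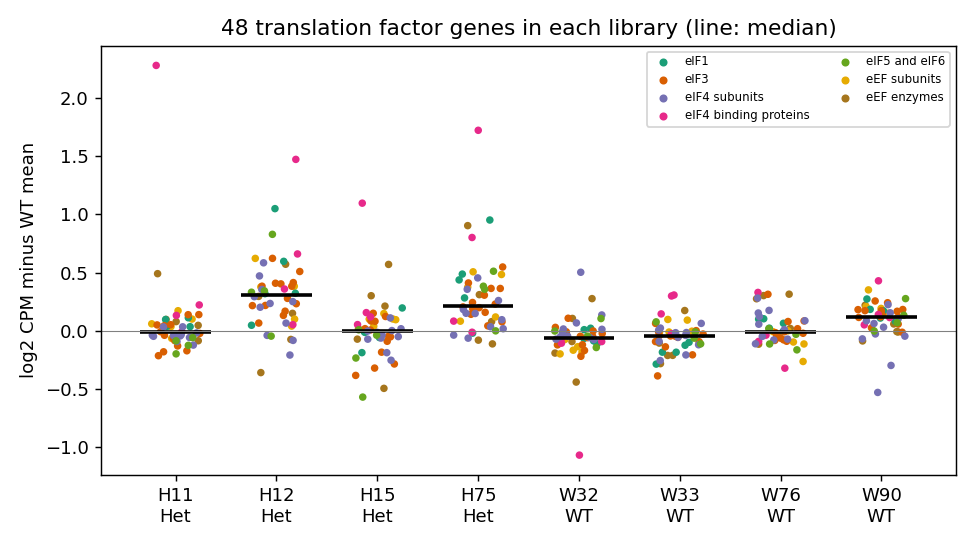
Deviation of each of the 48 tested genes from its WT mean (vertical axis, log2 CPM) in each of the 8 libraries, with 1 point per gene, coloured by role, and the median as a line. The medians of H12 and H75 lie at 0.31 and 0.22, while those of H11 and H15 lie near 0 and that of W90 at 0.12.

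The promoters were searched for 5 motifs, which the choice by symbol did not use. RefSeq promoter windows (GRCm38.p6, 250 bases before to 50 bases after each start, 300 bases in all) were held for 35 of the 48 tested members, and their shares are set beside those of all 27025 genes with a window, tested in liver or not. The E-box CACGTG, the core that factors of the MYC and TFE3 families bind, occurred in the windows of 12 of the 35 (34.3%) and of 8.09% of all genes with a window. The letters CGGAAG on either strand, which form the core of ETS-type sites, occurred for 22 members (62.9%) and 18.8% of all genes. CCAAT on either strand occurred for 10 members (28.6%) and 41.1% of all genes. The palindrome TGACGTCA, the cAMP response element, occurred for 1 member, Eef2, and 2.03% of all genes, and TGATGCAA on either strand, a composite element of the C/EBP and ATF4 type, for 0 members and 1.03% of all genes. No motif searched lies inside another. Median GC content was 63.3% in the members' windows and 52.7% in all windows, and no correction for it was made. The fitted log2 fold change had a median of 0.16 over the 12 members with an E-box, 0.081 over the 23 with a window and no E-box, and 0.21 over the 13 without a window. Of those 12 members, the E-boxes of the 8 named by rank of p or level are shown with 12 bases on each side. Those of Eif3a, Eif3k, Eif4e and Eif4g1 are not shown. The sequences are read along the gene's strand with the E-box in capitals, which starts between positions -189 and -24 relative to the RefSeq transcription start of its window. For Eif1b and Eif5a these starts lie further along the gene, and the stretches shown fall inside the gene's bounds in the GENCODE annotation. Eif5a has an E-box before 2 of its annotated starts.
Eef1akmt4, chr16:20611497-20611526, plus strand: tgacggaagttcCACGTGtttgtgtggagc
Eef2, chr10:81176576-81176605, plus strand: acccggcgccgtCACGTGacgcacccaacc
Eef2k, chr7:120842788-120842817, plus strand: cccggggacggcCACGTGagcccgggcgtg
Eif1b, chr9:120492570-120492599, plus strand: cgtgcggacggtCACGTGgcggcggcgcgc
Eif3f, chr7:108934335-108934364, plus strand: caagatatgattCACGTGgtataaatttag
Eif4a1, chr11:69672595-69672624, minus strand: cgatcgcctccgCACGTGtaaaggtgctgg
Eif4h, chr5:134639488-134639517, minus strand: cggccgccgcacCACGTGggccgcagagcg
Eif5a, chr11:69920791-69920820, minus strand: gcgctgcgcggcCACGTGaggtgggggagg
Eif5a, chr11:69921443-69921472, minus strand: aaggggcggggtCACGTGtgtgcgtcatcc

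Per kilobase, the levels of the set ranged widely and the elongation factors led them. Eef1a1, which encodes the tRNA-carrying elongation factor eEF1A1, stood first with 2213 ± 95.1 CPM per kb in Het and 2183 ± 220 in WT (SD, n = 4 each), and took 47.8 ± 1.87% of the set's length-scaled total in Het and 49.7 ± 1.60% in WT. Eef2, the translocase, followed with 422 ± 7.22 CPM per kb in Het and 397 ± 43.2 in WT, and Eif5a with 305 ± 51.1 in Het and 273 ± 21.4 in WT. Within each group the ranges of these 3 genes did not meet, but further down the order neighbours such as Eif4a1 and Eif1, or Eef1g, Eif4g1 and Eif3h, overlapped. The 14 eIF3 subunit genes kept to a narrower band, with Het means of 8.35 to 69.3 CPM per kb and WT means of 7.20 to 65.9. The 5 tested eEF enzymes lay at 2.34 to 5.78 CPM per kb in Het and 2.25 to 5.59 in WT.

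**Figure D3:**
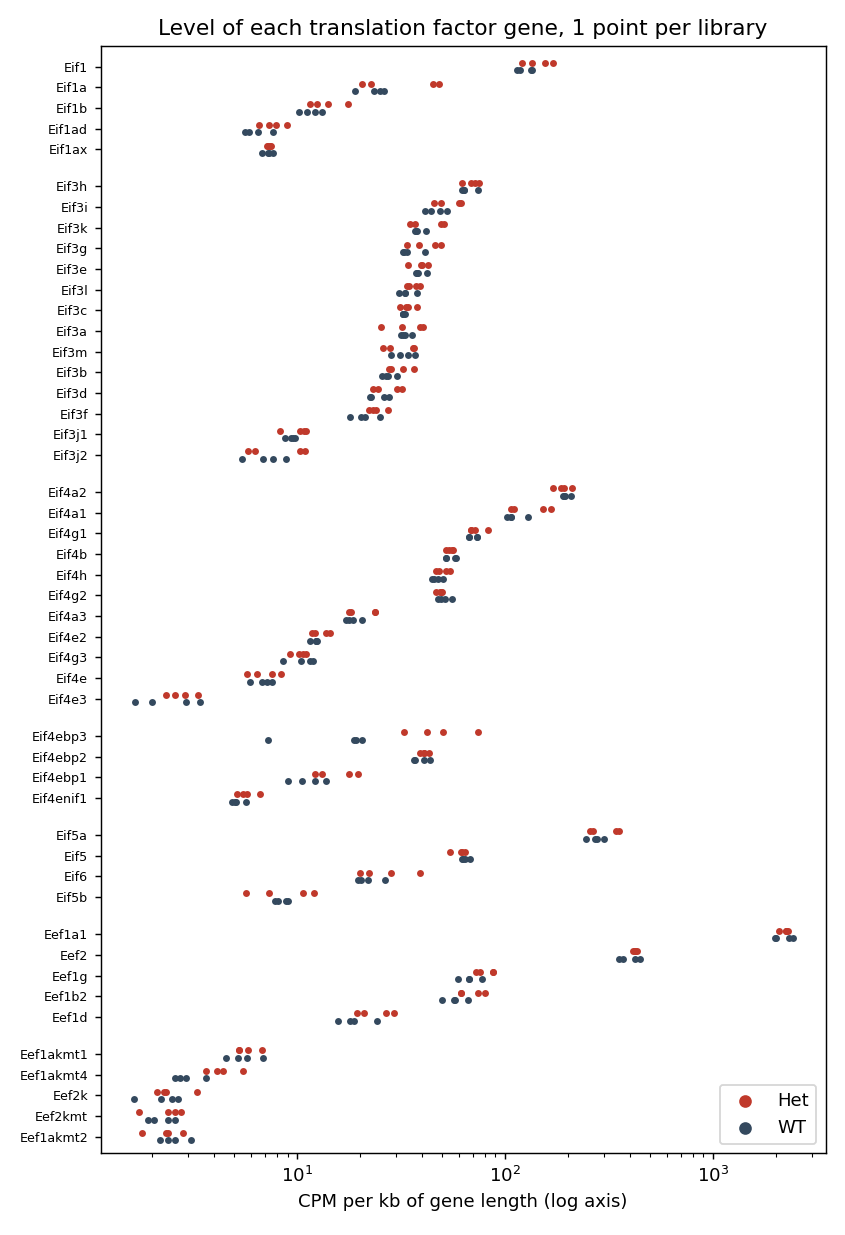
Level of each tested gene in each library (horizontal axis, CPM per kb of gene length, log axis), with Het above WT in each row and the genes ordered by level within their role. The Het and WT points overlap in every row except that of Eif4ebp3.

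Of the 52 genes, 4 had too few counts to test. Eif4e1b, known as a germline form of the cap-binding protein, had 0 counts in all 8 libraries. Eef1a2, the eEF1A form of muscle and neurons, had 0 to 4 counts in Het and 0 to 8 in WT, and Eif5a2, the lesser paralog of Eif5a, had 4 to 9 counts in Het and 7 to 12 in WT. Eef1akmt3, which encodes a lysine methyltransferase of eEF1A, had 1 to 2.02 estimated counts in Het and 0 to 6.1 in WT.

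Start codon choice is guarded by eIF1 and eIF1A. Among the eIF1 genes, grouped by symbol, 5 of 5 had fitted log2 fold changes above 0, with a median of 0.25, or 0.16 with library totals alone. 0 of the 5 reached an unadjusted p of 0.05. Eif1a, an autosomal gene for eIF1A, had 49.2, 104, 44.3 and 97.5 CPM in H11, H12, H15 and H75, against 50.8, 41.3, 54.2 and 56.8 CPM in W32, W33, W76 and W90. H12 and H75 lay well above every WT library, while H11 and H15 lay inside the WT range. The log2 fold change was 0.54 ± 0.27 (standard error, edgeR adjusted p = 0.578). Without H15 it was 0.72 ± 0.23 with an edgeR adjusted p of 0.170 and a DESeq2 adjusted p of 0.0423, so that Eif1a was a second member that DESeq2 called higher there (2.72% of all genes were). Without H12 it was 0.33 and without H75 0.38. Eif1ax, the X-linked gene for the same protein, had 37.0 to 38.8 CPM in Het and 35.1 to 39.7 CPM in WT, with a log2 fold change of 0.013 ± 0.074. The share of Eif1a in the length-scaled sum of both genes was 75.3, 86.5, 73.9 and 86.3% in H11, H12, H15 and H75, against 73.8 to 77.6% in WT. The exact two-sided permutation p of that share was 0.371. Reads that fit both genes may have been split between them by the counting.

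Eif1, which encodes the factor that opposes initiation at weak start codons, was the most abundant eIF1 gene, with 145 ± 21.9 CPM per kb in Het and 125 ± 10.6 in WT. In CPM it had 179, 207, 159 and 224 in H11, H12, H15 and H75, against 156, 152, 177 and 178 in W32, W33, W76 and W90. H15 lay inside the WT range and H11 just above its top, and the log2 fold change was 0.21 ± 0.12 (standard error, edgeR adjusted p = 0.626). Its paralog Eif1b, with the E-box shown above, had a log2 fold change of 0.25 ± 0.15, and Eif1ad, a gene of the eIF1A domain family, one of 0.26 ± 0.13 (standard errors, edgeR adjusted p = 0.633 and 0.586). Both overlapped between groups.

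Of the eIF3 subunit genes, whose products form the largest initiation factor, 13 of 14 had fitted values above 0, from -0.042 to 0.27 on the log2 scale, with a median of 0.13, or 0.035 with library totals alone. 0 reached an unadjusted p of 0.05. Eif3g, an RNA-binding subunit, had 37.3, 54.5, 42.5 and 50.9 CPM in H11, H12, H15 and H75, against 37.0, 35.9, 35.7 and 45.2 CPM in W32, W33, W76 and W90. A Het library, H11, lay beside the lower WT libraries, and W90 lay above both H11 and H15. Its log2 fold change was 0.27 ± 0.13 (standard error, edgeR adjusted p = 0.579). Eif3i and Eif3b, which sit together in the peripheral module of the complex, had log2 fold changes of 0.21 ± 0.12 and 0.19 ± 0.11, and Eif3f, a subunit of the core with the E-box at its promoter, one of 0.20 ± 0.11 (standard errors, edgeR adjusted p = 0.629, 0.623 and 0.635). Eif3h, the most abundant eIF3 gene per kilobase, had 80.3, 89.1, 92.7 and 97.0 CPM in H11, H12, H15 and H75, against 82.4, 82.5, 80.4 and 96.0 CPM in W32, W33, W76 and W90. Its log2 fold change of 0.073 ± 0.093 turned to -0.015 with library totals alone. The 9 other subunit genes had log2 fold changes of -0.042 to 0.21 and edgeR adjusted p-values of at least 0.721. Eif3j1 and Eif3j2 are near copies, and Eif3j2 held 44.5 ± 5.81% of their length-scaled sum in Het and 43.2 ± 5.55% in WT (SD, n = 4 each), though the split between them depends on how shared reads were counted.

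The subunits of the cap-binding machinery had the smallest median fold change of the 7 roles. Of 11 tested eIF4 subunit genes, 7 had fitted values above 0 and 4 below, with a median log2 fold change of 0.053 and a range of -0.070 to 0.27. 0 reached an unadjusted p of 0.05. With library totals alone, the median of the whole eIF4 family, binding proteins included, was 0.0039, against 0.095 with TMM. Eif4a1, the main gene of the eIF4A helicase and a carrier of the E-box, had 189, 295, 197 and 270 CPM in H11, H12, H15 and H75, against 189, 181, 190 and 230 CPM in W32, W33, W76 and W90. H12 and H75 again stood above WT, and H11 and H15 did not. Its log2 fold change was 0.27 ± 0.16, and 0.14 without H12, while that of its paralog Eif4a2, the more abundant of the pair per kilobase, was -0.051 ± 0.090 (standard errors, edgeR adjusted p = 0.638 and 0.890). Exons of both genes overlap those of other genes on the same strand. Without length scaling, Eif4a1 was the higher in H12 (295 against 208 CPM) and H75 (270 against 257 CPM), and Eif4a2 in the other libraries. Eif4a1 made up 41.2 ± 6.19% of their length-scaled sum in Het and 36.2 ± 2.84% in WT (SD, n = 4 each), with 49.5% in H12 as the highest and an exact two-sided permutation p of 0.2. Eif4a3, a helicase of the exon junction complex, had a log2 fold change of 0.17 ± 0.12, Eif4e2, a cap-binding repressor, one of 0.10 ± 0.088 and Eif4h, a helper of eIF4A, one of 0.095 ± 0.085 (standard errors, edgeR adjusted p = 0.693, 0.745 and 0.753).

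The shares of the scaffold genes overlapped between the groups. Eif4g1, the main scaffold, held 55.2 ± 1.903% of the length-scaled sum of the 3 eIF4G genes in Het and 53.3 ± 0.867% in WT, and Eif4g2, which lacks the eIF4E-binding site, 37.0 ± 1.88% in Het and 38.7 ± 0.991% in WT (SD, n = 4 each). Eif4e, the cap-binding protein itself, had 32.01, 41.8, 28.6 and 37.8 CPM in H11, H12, H15 and H75, against 33.9, 29.6, 37.9 and 35.6 CPM in W32, W33, W76 and W90. The Het values spanned the WT values on both sides. The 6 eIF4 subunit genes not given a fold of their own, Eif4e among them, had log2 fold changes of -0.070 to 0.15.

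The genes of the proteins that bind eIF4E held the largest difference. All 4 had fitted values above 0, with Eif4ebp2 at -0.029 when library totals alone were used, and their median log2 fold change was 0.31. Eif4ebp3, which encodes 4E-BP3, had 55.1, 31.5, 24.3 and 37.4 CPM in H11, H12, H15 and H75, against 5.42, 14.0, 14.3 and 15.3 CPM in W32, W33, W76 and W90. Every Het library lay above every WT library, with H11 the highest and H15 the lowest of the Het libraries and W32 well below the other WT libraries. The order of the Het libraries was thus not that of the shift seen in H12 and H75. The means were 37.1 ± 13.2 CPM in Het and 12.2 ± 4.59 CPM in WT (SD, n = 4 each), and the log2 fold change was 1.60 ± 0.33 (standard error). The edgeR p was 0.000733 before and 0.282 after adjustment over all tested genes, and the exact two-sided permutation p was 0.0286, the smallest that the 70 assignments of 4 against 4 allow.

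The call for Eif4ebp3 depended on the test. DESeq2 gave a log2 fold change of 1.60 with an adjusted p of 0.000377, and limma-voom an adjusted p of 0.345. On simulated counts, drawn with the spread that edgeR had estimated, 19.5% of all DESeq2's calls at an adjusted p under 0.05 were false, against 7.01% of edgeR's. Of the genes simulated with a 2-fold change, DESeq2 recovered 78% and edgeR 72%. The simulation held no library like H15, so these shares may differ in the real counts, and they do not apply to Eif4ebp3 singly. Without H15 the edgeR value was 1.76 ± 0.32 with an adjusted p of 0.0320, which made Eif4ebp3 the 1 member called by edgeR there (1.74% of all genes were called). At an unadjusted p under 0.05, 11 members were higher in that fit (7.84% of all genes were). DESeq2 called the gene in all 8 fits that each left out a library, with log2 fold changes of 1.34 to 1.76 and adjusted p-values of 2.95e-06 to 0.00587. Over 18 alternative fits, with DESeq2 on all libraries among them, the log2 fold change was 1.34 to 1.76 and the adjusted p 0.000377 to 0.608. The authors' deposited table gives it a fold of 3.03, a log2 fold change of 1.60 and an adjusted p of 0.000301, and marks it as significant.

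**Figure D4:**
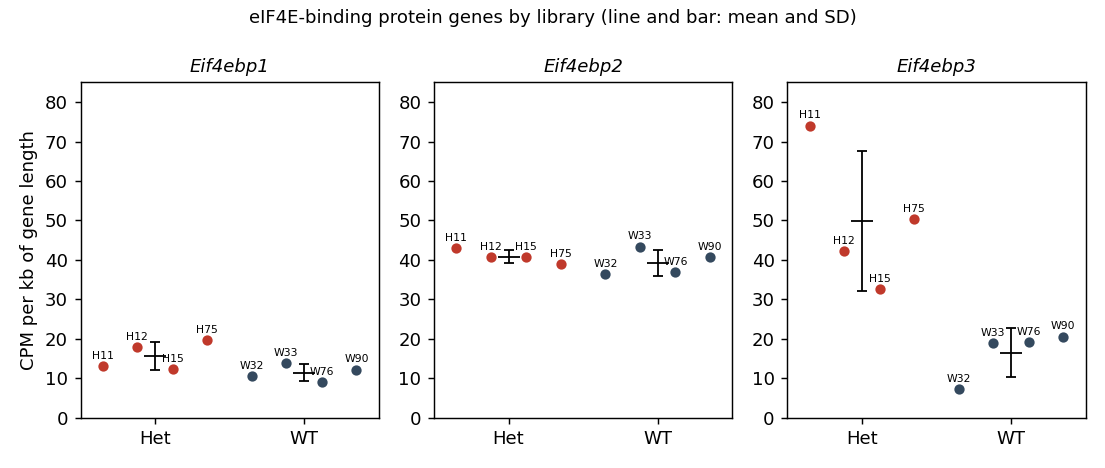
Levels of the 3 eIF4E-binding protein genes (vertical axis, CPM per kb of gene length) in Het and WT livers, with 1 labelled point per library and the mean and SD as bars. For Eif4ebp3 the Het points lie at 32.6 to 74.0 and the WT points at 7.28 to 20.5, while the points of Eif4ebp1 and Eif4ebp2 overlap.

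Eif4ebp3 shares exons with another annotated gene. On GRCm38 it lies at chr18:36664060-36665917 on the plus strand, protein-coding, with 3 exons and 744 bases. Of these, 2 exons with 501 bases have the same start and end as exons of AC115631.1, annotated across Ankhd1 and Eif4ebp3. Partial overlap of the remaining exon was not measured. AC115631.1 had 9.28, 12.3, 8.96 and 18.2 CPM in H11, H12, H15 and H75, against 8.92, 11.9, 11.7 and 9.80 CPM in W32, W33, W76 and W90, and a log2 fold change of 0.20 ± 0.22 (standard error, edgeR adjusted p = 0.807). These values overlapped between groups. Summed over both genes, the level was 64.3, 43.7, 33.2 and 55.6 CPM in H11, H12, H15 and H75, against 14.3, 25.9, 25.9 and 25.1 CPM in the 4 WT libraries. The groups remained apart in the sum, with a log2 fold change of 1.11 ± 0.24, an edgeR adjusted p of 0.314 and a DESeq2 adjusted p of 0.00185. Ankhd1, the gene upstream, chosen after its values were seen, had 36.8, 30.1, 26.9 and 25.6 CPM in the Het libraries and 34.2, 37.1, 37.0 and 22.6 CPM in the WT libraries, with a log2 fold change of -0.13 ± 0.17 (standard error, edgeR adjusted p = 0.839).

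The other binding proteins differed less. Eif4ebp1, which encodes 4E-BP1 (chr8:27260329-27276674, plus strand), had 26.2, 35.5, 24.4 and 39.2 CPM in H11, H12, H15 and H75, against 21.1, 27.7, 18.0 and 24.3 CPM in W32, W33, W76 and W90. H12 and H75 lay above the WT range and H11 and H15 inside it. The log2 fold change was 0.46 ± 0.18 (standard error), with an edgeR adjusted p of 0.482 and an exact permutation p of 0.114. Eif4ebp2, which encodes 4E-BP2, had 249, 235, 235 and 225 CPM in the Het libraries and 211, 251, 213 and 235 CPM in the WT libraries, and a log2 fold change of 0.054 ± 0.089 (standard error, edgeR adjusted p = 0.880). Eif4enif1, whose product carries eIF4E into the nucleus, had a log2 fold change of 0.15 ± 0.10 (standard error, edgeR adjusted p = 0.678).

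The make-up of the 4E-BP transcripts was looked at after the values were seen, and it is given as a description that follows from the levels above. Per kilobase, Eif4ebp3 made up 45.8 ± 8.09% of the sum of the 3 genes in Het and 23.9 ± 7.28% in WT, Eif4ebp2 39.2 ± 6.37% in Het and 59.0 ± 5.44% in WT, and Eif4ebp1 15.02 ± 3.69% in Het and 17.0 ± 2.41% in WT (SD, n = 4 each). The summed level was 130, 101, 85.5 and 109 CPM per kb in H11, H12, H15 and H75, against 54.3, 76.1, 65.0 and 73.4 in the 4 WT libraries. Per kilobase, Eif4ebp3 was the leading 4E-BP transcript in H11, H12 and H75, while Eif4ebp2 led in H15 and in all 4 WT libraries. In H12 the lead was narrow, at 42.3 against 40.7 CPM per kb for Eif4ebp2. That order rests on the length scaling, since in CPM Eif4ebp2 was the higher in every library. The level of Eif4ebp3 also depends on how reads shared with AC115631.1 were assigned.

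Of the eIF5 and eIF6 genes, 3 of 4 tested had fitted values above 0. The median of the 3 eIF5 genes was 0.081, but -0.035 with library totals alone. Eif6, whose product keeps the large ribosomal subunit free and is known in mouse liver for a role in lipid synthesis, had 30.2, 58.6, 33.2 and 42.2 CPM in H11, H12, H15 and H75, against 32.9, 30.5, 29.4 and 39.9 CPM in W32, W33, W76 and W90. H12 was the highest, H75 lay just above WT, and H11 and H15 sat inside the WT range, and the log2 fold change was 0.31 ± 0.20 (standard error, edgeR adjusted p = 0.663). Without H12 it was 0.084. Eif5a, with an E-box before each of 2 starts, had 219, 292, 226 and 303 CPM in H11, H12, H15 and H75, against 210, 230, 235 and 254 CPM in W32, W33, W76 and W90. H12 and H75 lay above WT and the other Het libraries inside it, with a log2 fold change of 0.16 ± 0.13 (standard error, edgeR adjusted p = 0.723).

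Eif5b, which encodes the GTPase that joins the ribosomal subunits and which varied widely among the Het libraries, had 57.3, 83.4, 44.3 and 93.7 CPM in H11, H12, H15 and H75, against 70.7, 62.9, 60.8 and 69.0 CPM in W32, W33, W76 and W90. H12 and H75 lay above all WT libraries and H11 and H15 below them, and the log2 fold change was 0.081 ± 0.21 (standard error, edgeR adjusted p = 0.929). It was 0.25 without H15, -0.017 without H12, -0.096 without H75 and -0.035 with library totals alone. Eif5, the GTPase-activating protein of the scanning complex, had a log2 fold change of -0.082 ± 0.084 (standard error, edgeR adjusted p = 0.790).

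Among the elongation factor subunits, the 3 genes of the exchange factor eEF1B were higher in mean and the 2 most abundant genes barely differed. Eef1g, which encodes its gamma subunit (chr19:8967041-8978479, plus strand), had 142, 164, 135 and 163 CPM in H11, H12, H15 and H75, against 111, 126, 125 and 144 CPM in W32, W33, W76 and W90. H12 and H75 lay above all WT libraries, and H11 and H15 above all but W90. The log2 fold change was 0.26 ± 0.11 (standard error), with an edgeR adjusted p of 0.503 and an exact permutation p of 0.0857. Eef1b2, the catalytic beta subunit, had 119, 145, 119 and 156 CPM in H11, H12, H15 and H75, against 97.0, 111, 111 and 129 CPM in the 4 WT libraries, in the same order as Eef1g relative to W90. Its log2 fold change was 0.27 ± 0.12 and that of Eef1d, the delta subunit, 0.33 ± 0.16 (standard errors, edgeR adjusted p = 0.544 and 0.573). Under library totals alone Eef1g was at 0.16 and Eef1b2 at 0.17. Eef1a1 had 3729, 4012, 4008 and 4132 CPM in the 4 Het libraries and 3551, 4174, 3608 and 4331 CPM in the 4 WT libraries. Its log2 fold change of 0.020 ± 0.11 turned to -0.068 with library totals alone, and that of Eef2 was 0.089 ± 0.10 (standard errors, edgeR adjusted p = 0.971 and 0.813). The median over the 10 tested eEF genes was 0.12, or 0.044 with library totals alone.

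The enzymes that modify elongation factors were low in expression. Eef1akmt4, a methyltransferase of eEF1A (chr16:20611593-20619011, plus strand), had 4.70, 4.97, 4.12 and 6.25 CPM in H11, H12, H15 and H75, against 2.93, 3.11, 4.12 and 3.33 CPM in W32, W33, W76 and W90. H15 was level with W76, and every other Het library lay above all WT libraries. The log2 fold change was 0.57 ± 0.18 (standard error, edgeR adjusted p = 0.422, exact permutation p = 0.0571, two-sided), and leaving out H15 it was 0.65 ± 0.19 with an edgeR adjusted p of 0.130. Its exons overlap those of Gm49333 on the same strand and of Alg3 on the other, and whether the counting used strand is not known here. Eef2k, the kinase that inactivates eEF2, had 5.82, 5.35, 8.37 and 5.95 CPM in H11, H12, H15 and H75, against 4.16, 6.36, 6.82 and 5.60 CPM in the 4 WT libraries. H15 was the highest and the others lay inside the WT range, with a log2 fold change of 0.15 ± 0.20 (standard error, edgeR adjusted p = 0.839) that was -0.0057 without H15. Eef1akmt1, Eef1akmt2 and Eef2kmt, methyltransferases of eEF1A and eEF2, had log2 fold changes of 0.050, -0.13 and 0.074 with edgeR adjusted p-values of at least 0.871, and with library totals alone Eef1akmt1 and Eef2kmt were at -0.037 and -0.0077.

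Other genes of the translation pathway were counted in 5 lists, and edgeR gave 0 adjusted calls in each (0% of all tested genes). At an unadjusted p under 0.05, 4.9% of all tested genes were higher in Het and 4.44% lower. Of 8 tested genes for termination and recycling, 0 reached an unadjusted p of 0.05 in either direction, with a median log2 fold change of 0.072. Hbs1l and Etf1, a recycling GTPase and the release factor eRF1, had the lowest p-values among them, with log2 fold changes of 0.20 ± 0.098 and 0.17 ± 0.13. Of 27 genes for poly(A) binding, cap control and mTOR signalling, 0 were higher and 1 was lower at p under 0.05, with a median of 0.016. That gene was Mtor, the kinase that phosphorylates the 4E-BPs, with 39.0, 32.8, 38.0 and 32.3 CPM in H11, H12, H15 and H75, against 43.4, 41.6, 40.4 and 39.8 CPM in W32, W33, W76 and W90. Every Het library lay below every WT library, and the log2 fold change was -0.22 ± 0.089 (standard error, edgeR adjusted p = 0.498). In the same list Pabpc1 was higher without overlap, at 203 to 237 CPM in Het and 189 to 202 CPM in WT. Its log2 fold change was 0.15 ± 0.084 (standard error, edgeR adjusted p = 0.629). Over all tested genes, groups did not overlap for 2.06% higher and 2.32% lower. Abcf1, a partner of eIF2 in initiation, had the next lowest p, with a log2 fold change of 0.24 ± 0.11.

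Of the 2 genes that place hypusine on eIF5A, Dohh was higher at p under 0.05, with 14.9, 18.6, 13.4 and 19.1 CPM in H11, H12, H15 and H75, against 12.6, 13.8, 13.2 and 14.0 CPM in W32, W33, W76 and W90 (log2 fold change 0.30 ± 0.13, standard error, edgeR adjusted p = 0.507). H15 lay inside the WT range. Dhps was at -0.012 ± 0.14. Of 7 genes for the diphthamide of eEF2, 0 were higher and 1 was lower, Dph1, at -0.34 ± 0.13 (standard error, edgeR adjusted p = 0.479), and Dph6 followed at -0.25 ± 0.16. Of 10 tested mitochondrial translation factors, 0 reached p under 0.05, with a median of -0.043, and Guf1 and Tufm, which had the lowest p-values, were at -0.21 ± 0.12 and 0.16 ± 0.10.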

How the data were processed

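Trizol extracts of frozen livers were treated with DNaseI and depleted of ribosomal RNA before library preparation, per the labels' protocols. The mm10 build, Bowtie2 2.2.9, fastp 0.19.5, SAMtools 1.9 and GATK 3.8 are named without roles in the submitters' processing notes. Neither the counting program nor its strand setting is given in these sources. Per-gene values in the deposited count table are estimated counts without normalization, and 90.0% of them are whole. The authors' deposited table of comparisons gives, per the file headers, gene length in bases, a fold (ratio), its log2 value, and p-values with adjusted p-values. Its header states no direction, and 99.5% of its signs over 13972 shared genes are those of Het over WT.

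Columns were assigned to groups by their first letter, with no pairing. The rounded counts were filtered (filterByExpr), TMM-scaled and fitted by edgeR 4.0.16 (R 4.3.3, quasi-likelihood F-test) with a group term alone and Benjamini-Hochberg adjustment over 14261 genes. A standard error is the size of a log2 fold change divided by the square root of F. Permutation tests were exact and two-sided on log2 CPM with a prior count of 1, or on the shares where a share is given. Depth limits precision for genes of a few CPM. No 2 libraries of a group agreed within sampling noise (chi-square per gene of 22.2 to 179 over the pairs). Genes were named by rank: in each of 7 roles the most abundant member and the 4 with the smallest p, and in each pathway list the 2 with the smallest p. Eif1ax, Eif3j1, Eif3j2, Eif4e, Eif4g1, Eif4g2 and Pabpc1 lie outside that rule and, like Ankhd1, were chosen after their values were seen. The members and lists were chosen with earlier results of these data known. Locations are from GENCODE mouse release M21 on GRCm38, the assembly of mm10, where all 52 identifiers matched, and promoter windows from RefSeq. Alternatives were other scalings and filters, DESeq2 1.42.0, limma-voom (limma 3.58.1), the other quasi-likelihood method, removal of abundant genes or of 541 unannotated loci, and leaving out each library. Scripts were tested on simulated counts.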

Additional observations from a re-analysis of the deposited data

Results flagged for a closer look

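A library stood apart from the other 3 of its group for 4 of the 64 sets examined (Het and WT for each of 32 named genes) by Dixon's criterion. About 3.2 such sets are expected by chance. Eif4ebp3 was 5.42 CPM in the WT library W32, against 14.0 to 15.3 CPM in the other WT libraries. Eif3g was 45.2 CPM in W90, against 35.7 to 37.0 CPM in the other WT libraries, and Eif3h was 96.0 CPM in W90, against 80.4 to 82.5 CPM. Eif4e2 was 33.2 CPM in W76, against 35.3 to 35.6 CPM.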

How the results depend on the processing

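No paired analysis was possible because the columns carry no replicate numbers. Of 576 values of named members under alternatives, 559 kept their direction and side of the adjusted threshold, and 25 of 32 named members never changed direction. With library totals alone, 19 members were lower in Het against 7 with TMM, groups did not overlap for 2 higher and 2 lower members, and the log2 fold change was -0.0077 for Eef2kmt, -0.037 for Eef1akmt1, -0.068 for Eef1a1, -0.015 for Eif3h, -0.029 for Eif4ebp2 and -0.035 for Eif5b. That scaling also shifted all genes, whose median was -0.079 against 0.0051, and 1.14% of all genes were then higher and 3.50% lower without overlap. Upper quartile scaling and a minimum of 1 CPM in 4 libraries each gave 2 members higher without overlap (1.97 and 2.08% of all genes), no low-count filter gave 7 higher at an unadjusted p under 0.05 (3.76% of all genes), and DESeq2 called 1. Leaving out each library, edgeR called 0 to 1 member, 2 to 11 were higher at an unadjusted p under 0.05, 1 to 10 were higher and 0 to 1 lower without overlap, and 5 to 13 had a lower mean in Het. Unadjusted higher members numbered 2 without W32, W76, H12 or H75 (2.99 to 3.66% of all genes), 9 without W90 (5.11%), and 11 without H11 (5.70%) or H15 (7.84%). Those higher without overlap numbered 2 without W33 or W76 (3.41 and 3.14% of all genes), 5 without H15 (5.99%) and 10 without W90 (4.86%), and lower means 12 without H12 and 13 without H75. DESeq2, added after seeing the data, called 1 to 2 members with each library left out, beside 0.452% (without H75) to 5.36% (without H15) of all genes. In edgeR's fits with each library left out, log2 fold changes ran from -0.023 to 0.070 for Eef1a1, -0.037 to 0.17 for Eef1akmt1, -0.0057 to 0.25 for Eef2k, -0.0071 to 0.20 for Eef2kmt and -0.096 to 0.25 for Eif5b. Over all genes edgeR called 0, 18 with no filter and 252 without H15, and DESeq2 called 152. The causes were not tested.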
